A study of Saccharomyces cerevisiae with 15 samples.

Results

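Sac3 is the scaffold subunit of THSC/TREX-2, a nuclear pore-associated complex that couples transcription of protein-coding genes with export of their mRNAs. In yeast it holds Thp1, Sem1, Sus1 and Cdc31 together at the inner face of the pore and contacts the mRNA export receptor Mex67. Cells that lack it grow slowly, retain polyadenylated RNA in the nucleus and show transcription-associated recombination. Its loss is compared here with the isogenic wild type over all measured genes, including those of low intensity. A total of 6 of the 15 arrays of the series were used, 3 of BY4741 (MATa his3Δ1 leu2Δ0 met15Δ0 ura3Δ0) and 3 of the derived deletion strain Y03517, in which the KanMX cassette replaces SAC3 and which carries the same auxotrophic markers. All cultures were in mid-log phase in YPD, a rich glucose medium. Y03517 is 1 strain, and the labels do not say whether the 3 biological replicates came from separate cultures, and p-values then describe only how these RNA samples spread, which may be technical.

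Total RNA was hybridised to Affymetrix yeast genome arrays, and each value is a model-based expression value in arbitrary units on a linear scale (hereafter units). Of 5449 genes with a probe set, 424 were on chromosome XVI and 5025 elsewhere. The median value of a gene was between 1302 and 1401 units on the BY4741 arrays and between 1439 and 1499 on the sac3Δ arrays. BY4741 replicate 3 had 862 empty probe sets (14.6%) against 0 to 15 on the other 5 arrays. The gaps covered 797 genes and were most frequent among the brightest 10% of genes (29.2%). Spearman's rank correlation across genes was 0.969 to 0.976 between BY4741 arrays and 0.919 to 0.962 between strains. Among sac3Δ arrays it was 0.995 for replicates 1 and 2 and 0.988 and 0.976 for replicate 3 against them, so replicate 3 lay nearer to the wild type. For control genes probed at both ends, the 3′ signal relative to the 5′ signal, which falls when the labelled RNA is longer, was higher in all 3 sac3Δ arrays for SRB4 (mean 10.4 ± 1.76 against 6.50 ± 0.468, SD, n = 3, exact permutation test, p = 0.10), EAF5 (2.36 against 1.93, exact p = 0.10), ACT1 (1.40 against 1.29, exact p = 0.10) and WBP1 (2.39 against 1.87, n = 2 in BY4741, exact p = 0.10). SPT15 was also higher in all 3 sac3Δ arrays (2.10 against 1.70, n = 2 in BY4741, exact p = 0.20). For TDH1 (exact p = 0.20) and RIP1 (exact p = 0.30) the mean was higher too, but the strains overlapped. No p under 0.10 can be had with 3 arrays against 3 or 2. The part of this difference in the results was not tested.

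SAC3 mRNA was not detected above background in the mutant. BY4741 replicates 1 to 3 read 1340, 1302 and 1593 units and sac3Δ read 15.5, 16.8 and 15.4 units. Since URA3 is deleted in both strains, its brightest probe set served as background (20.4 to 33.8 units). The sac3Δ values lay below it, so that SAC3 was at least 53.5-fold lower. The neighbouring genes on chromosome IV were not called. HOM2 gave a log2 fold change of −0.42 ± 0.12 (SE of the model, adjusted p = 0.0453), below the fold minimum, and SSY1 gave 0.15 ± 0.14 (adjusted p = 0.459). By most markers both strains had the expression of MATa cells, with the α-factor receptor gene STE2 at 11269 and 9577 units in BY4741 (replicate 3 empty) and 13522, 14786 and 11466 in sac3Δ. The α-cell marker HMLALPHA1 was at 34.3 to 71.7 units. SAG1 read 820, 740 and 866 units in BY4741 and 1010, 1166 and 813 in sac3Δ. STE3 read 344, 323 and 564 against 157, 165 and 237 units (−1.12 ± 0.25, adjusted p = 0.0277). The last pair lay above background and well below STE2, as did the MATa marker ASG7 (388 to 628 units). Of the meiotic markers, SPS2 was near background in both strains and the others were at 1000 units or less. IME2, a meiotic kinase gene, read 373, 442 and 458 units in BY4741 and 682, 947 and 626 in sac3Δ (0.81 ± 0.17, adjusted p = 0.0238).

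Calls required an adjusted p under 0.05 in limma, a change of 1.5-fold or more and a difference above 100 units. By this rule 400 genes (7.34%) were up-regulated and 191 (3.51%) down-regulated in sac3Δ. On chromosome XVI 158 genes were up (37.3%) and 1 was down (0.236%). On the other chromosomes 242 genes were up (4.82%) and 190 down (3.78%). The balance of increases and decreases depends on the scale between arrays: with array medians set equal, all log2 fold changes moved by about −0.12 (the median gene from 0.03 to −0.09), and the calls became 275 up and 333 down. For that reason group medians are given beside that of all genes off chromosome XVI (0.00). Without BY4741 replicate 3, which held the empty cells, 145 genes were up on chromosome XVI, 171 up and 151 down elsewhere. The calls rested most on sac3Δ replicates 1 and 2, the closest pair. Without replicate 1, 41 genes were up on chromosome XVI, 22 up and 34 down elsewhere, and without replicate 2 these counts were 108, 67 and 95. Of the 131 called genes chosen for naming, 101 lost their call without replicate 1 and 64 without replicate 2, and this holds for most genes described here. Among these, further calls were lost without BY4741 replicate 1 (ARG3, ARN1, CDC31, DAN1, HUG1, IME2, ISU1, IZH4, NAB2, NDC80, RPN4, SER3 and TRA1), replicate 2 (CIN8 and TRA1) or replicate 3 (ARG3, ARN1, CDC31, CIN8, ISU1, NDC80 and RPN4), without sac3Δ replicate 3 (CDC6, ISU1, IZH4, POM152 and SER3), or with array medians set equal (CBC2, CDC31, HFI1, ISU1, MEP3, MEX67, NAB2 and UBI4). A total of 30 of them, including RGI2, PIR3, YOR338W, TDA6, RLM1, ROX1, RLF2, ANB1, YHK8, NRT1, HMS2 and BAT2, kept their call whichever of the 6 arrays was left out. RGI2 has an empty sac3Δ value, so that 2 of these fits hold 1 sac3Δ value, which is assumed to vary like BY4741.

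Genes of low intensity, under 600 units on 50% or more of the 6 arrays, made up 1141 of the 5449. Off chromosome XVI 48 of 1057 such genes were up (4.54%) and 80 were down (7.57%), against 194 up (4.89%) and 110 down (2.77%) of 3968 brighter genes. Their median log2 fold change was −0.20 and that of the brighter genes 0.03. Up-regulated genes off chromosome XVI had a median BY4741 level of 890 units and down-regulated genes one of 1179, against 1400 for all genes there. Their median lengths on the genome, introns included, were 1472 and 1302 bases against 1236. The probe set of a gene sets its brightness in part, so levels of different genes are only a rough guide to transcript abundance.

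**Figure D1:**
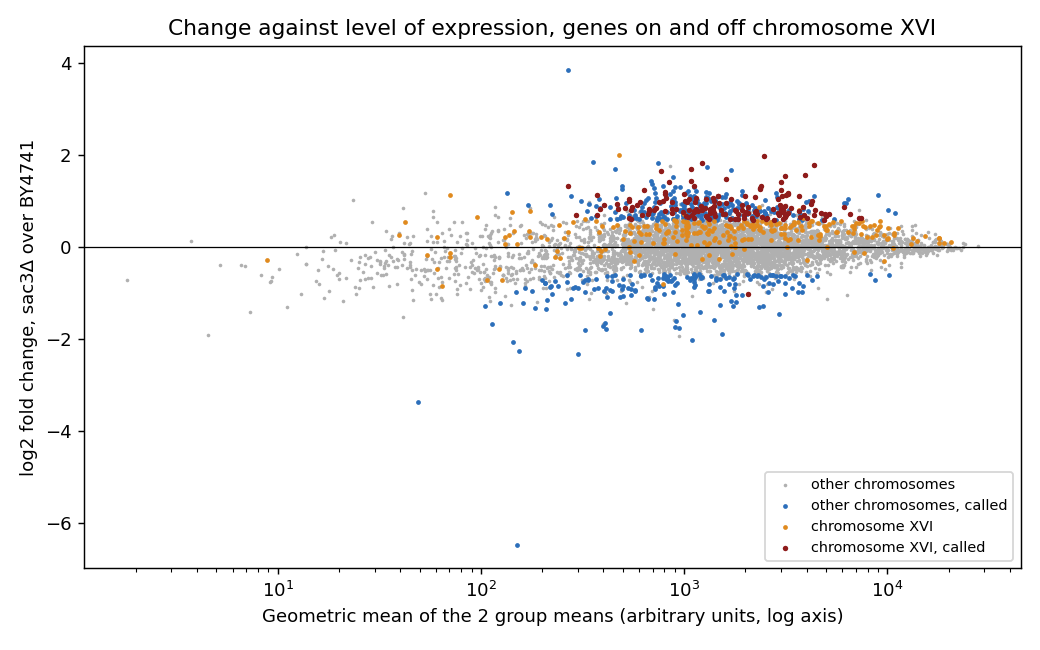
Log2 fold change in sac3Δ over BY4741 (vertical axis) against the geometric mean of the group means in arbitrary units (horizontal axis, log scale), 1 point per gene. Chromosome XVI genes (orange, called genes dark red) form a band above 0 at all levels, and called genes of other chromosomes (blue) lie on both sides.

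Chromosome XVI stood apart from the 15 other chromosomes. The median log2 fold change of its 424 genes was 0.49, whereas the medians of the other chromosomes ranged from −0.07 to 0.06. In each array, the median deviation of chromosome XVI genes from the BY4741 mean, minus that of all other genes, was 0.50, 0.52 and 0.49 in sac3Δ and 0.00, 0.01 and 0.00 in BY4741. The groups did not overlap (sac3Δ mean 0.50 ± 0.02, SD, n = 3, 1.42-fold, exact permutation test, p = 0.10, the smallest value that 3 against 3 arrays allow). DNA content was not measured in these samples. Of the 424 genes, 388 (91.5%) had a log2 fold change above 0, against 50.1% of the other genes, and for 325 (76.7%) all sac3Δ values lay above all BY4741 values, against 20.7% elsewhere.

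**Figure D2:**
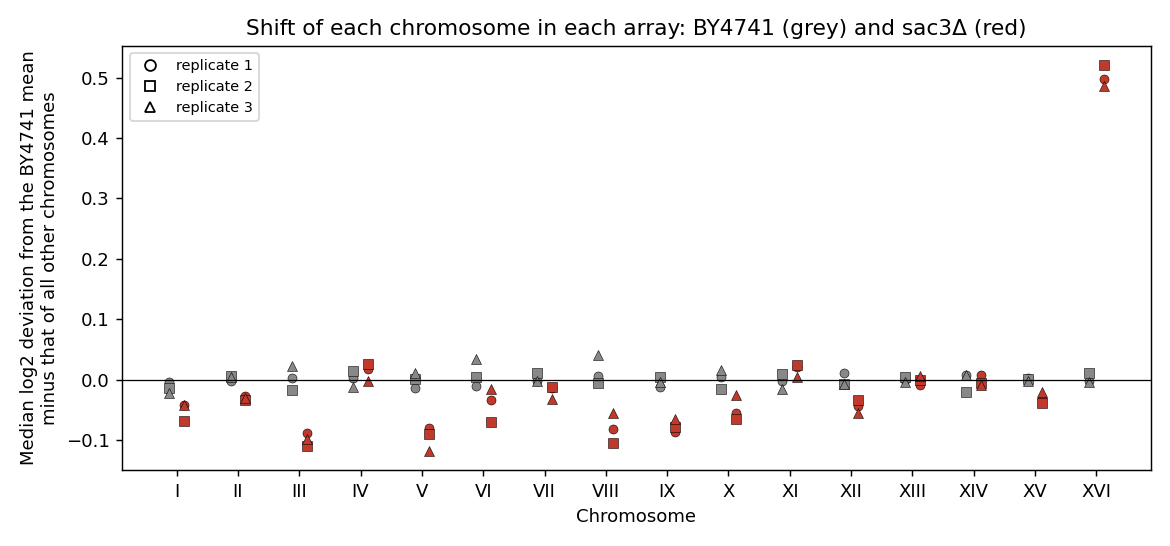
Median log2 deviation of the genes of each chromosome from the BY4741 mean, minus that of all other chromosomes (vertical axis), in each BY4741 (grey) and sac3Δ array (red), marker shape giving the replicate. The sac3Δ arrays lie at 0.49 to 0.52 for chromosome XVI and within 0.12 of 0 for the 15 others.

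The shift ran the length of the chromosome. It was 0.49 for the 256 genes of the left arm and 0.50 for the 168 of the right arm, and the median log2 fold change of 21 consecutive windows of 20 to 24 genes was between 0.32 and 0.64. It also held over the range of expression, with differences from other chromosomes of 0.48, 0.50, 0.50 and 0.47 in 4 bins of increasing level. Among the 84 low-intensity genes of the chromosome the median was 0.40, which was 0.60 above that of low-intensity genes elsewhere, and 26 of them were up (31.0%). Among the 340 brighter genes it was 0.51, or 0.48 above the others, and 132 were up (38.8%).

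**Figure D3:**
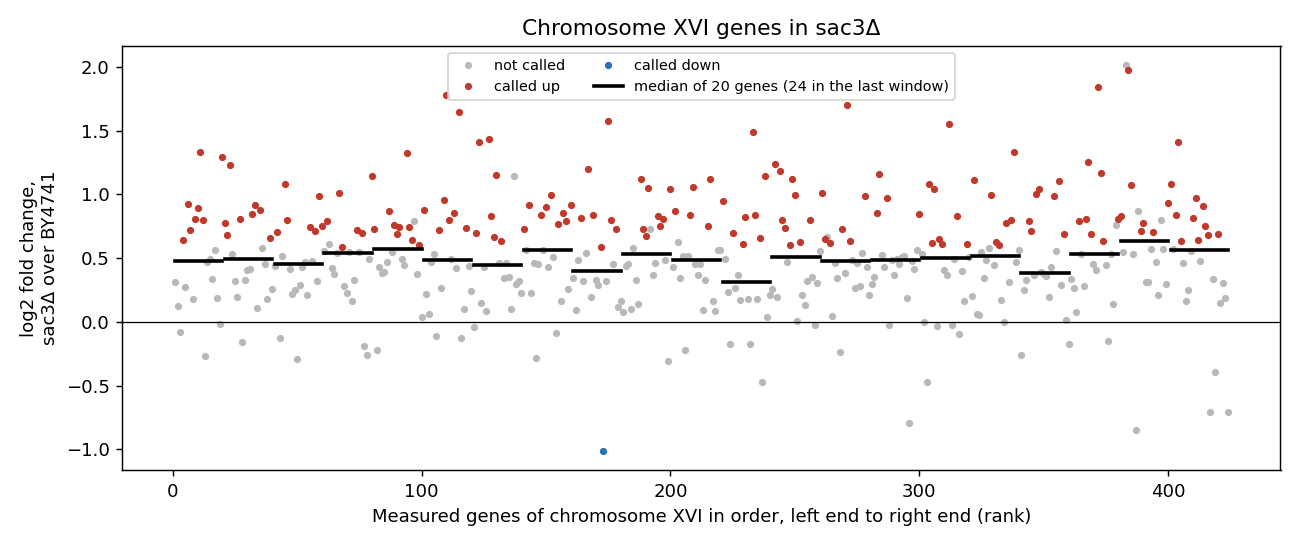
Log2 fold change of each measured chromosome XVI gene (points, called up in red, called down in blue) in the order of the genes along the chromosome, with the median of each window as a black bar. All 21 bars lie between 0.32 and 0.64, and called genes reach from −1.01 (SSU1) to 1.98 (TDA6), with the uncalled TPO3 at 2.01.

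Some chromosome XVI genes moved well beyond this common shift. With the chromosome's median subtracted from each of its log2 fold changes, 26 of the 424 genes (6.13%) were above the fold and test limits and 13 (3.07%) below them, an alternative chosen after seeing the data. These shares were near the 4.82% up and 3.78% down of all genes off the chromosome. TDA6, a gene of unknown function, read 1226, 1227 and 1282 units in BY4741 and 4726, 5268 and 4738 in sac3Δ. The arrays of each strain were close together and the change was 3.94-fold (1.98 ± 0.09, adjusted p = 0.000319). KAR3 encodes a minus-end-directed kinesin of the spindle. It read 753 and 536 units in BY4741 (replicate 3 empty) and 2442, 2742 and 1759 in sac3Δ (1.84 ± 0.24, adjusted p = 0.0088). VIK1, whose product binds Kar3 as its non-motor partner, rose from 474, 318 and 454 to 972, 1051 and 870 units (1.23 ± 0.17, adjusted p = 0.0075). Neither gene's strains overlapped, and sac3Δ replicate 3 was the lowest mutant array in both. AIM44, a gene of the bud neck, read 2684, 1708 and 2724 units in BY4741 and 8426, 8004 and 7454 in sac3Δ, without overlap (1.78 ± 0.19, adjusted p = 0.00564).

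Regulators of transcription, the cell cycle and chromatin were among these genes too. RLM1, the transcription factor of the cell wall integrity pathway, read 2062, 2525 and 2220 units in BY4741 and 6324, 7483 and 6423 in sac3Δ (1.57 ± 0.12, adjusted p = 0.00265). ROX1, the repressor of hypoxic genes, read 2155, 1963 and 1415 units in BY4741 and 4876, 5814 and 5289 in sac3Δ (1.55 ± 0.17, adjusted p = 0.00564). Every mutant array was more than 2-fold above every wild-type array for both genes. RAD53, the checkpoint kinase gene, which was under the intensity cutoff in the wild type, read 518, 301 and 494 units there and 1355, 1624 and 1071 in sac3Δ (1.65 ± 0.25, adjusted p = 0.00889). RLF2, for the large subunit of the chromatin assembly factor CAF-1, went from 612, 506 and 670 units to 2008, 2265 and 1568 (1.70 ± 0.17, adjusted p = 0.00564). The G1 cyclin gene CLN2 went from 1572, 1123 and 1862 units to 3582, 3950 and 3410 (1.29 ± 0.19, adjusted p = 0.00827). The other 3 of the 10 largest called increases of the chromosome were those of the kinase genes SKS1 (1.49 ± 0.16) and FRK1 (1.43 ± 0.23) and of NOP53, for a factor of large ribosomal subunit assembly (1.41 ± 0.27). With the chromosome's median subtracted, NOP53 (0.92) was not called. RLF2, CLN2, PLB2, HMS2 and ARG1 were the genes taken up for RT-qPCR in the study, so their changes on these arrays are not independent evidence.

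At the other end, SSU1, the sulfite pump gene, was the single chromosome XVI gene called down. Its values were 2676, 3868 and 2306 units in BY4741 and 1410, 1360 and 1518 in sac3Δ, without overlap (−1.01 ± 0.19, adjusted p = 0.016). THP3, which encodes a partner of the COP9 signalosome component Csn12, read 832 and 1250 units in BY4741 and 530, 696 and 553 in sac3Δ, and just missed the threshold (−0.79 ± 0.21, adjusted p = 0.0509). The other 11 genes below the chromosome's median by this rule were close to their wild-type level, with log2 fold changes between −0.29 and −0.10. Among them were FHL1, a regulator of ribosomal protein genes (−0.26), NAB3, which acts in termination of non-coding transcripts (−0.26), and FAS2, a fatty acid synthase gene (−0.12), and none of the 11 was called against BY4741.

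Away from chromosome XVI the largest increase was that of RGI2 on chromosome IX, a gene linked to respiratory energy metabolism. It read 50.3, 91.4 and 72.5 units in BY4741 and 947 and 1070 in sac3Δ replicates 1 and 3 (replicate 2 empty). The increase was 14.5-fold (3.86 ± 0.26, adjusted p = 0.00484). YOR338W, an uncharacterised gene, read 371, 388 and 408 units in the wild type and 1493, 1629 and 1097 in the mutant (1.83 ± 0.16, adjusted p = 0.00511). PIR3, for a cell wall protein attached to β-1,3-glucan, read 867, 1183 and 835 against 2762, 2910 and 3438 units (1.67 ± 0.16, adjusted p = 0.00564). None of these overlapped between strains. CHM7, whose product recruits ESCRT-III to defective nuclear pores, read 709, 556 and 324 units in BY4741 and 1516, 1746 and 1169 in sac3Δ, also without overlap (1.53 ± 0.30, adjusted p = 0.0175). Others of the 10 largest increases were the short open reading frame YER053C-A (1.75 ± 0.28), the kinetochore gene KRE28 (1.69 ± 0.36), the TFIID subunit gene TAF7 (1.44 ± 0.23), the phosphatase gene PHM8 (1.38 ± 0.20) and SPT21, a regulator of histone gene transcription (1.34 ± 0.17). Of the genes named here, RGI2, YOR338W, KRE28, TAF7 and PHM8 fell under the intensity cutoff. The kinetochore gene SLK19 had a similar change but failed the test with these 6 arrays (722, 588 and 169 units against 1567, 1849 and 982, 1.77 ± 0.55, adjusted p = 0.0633).

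**Figure D4:**
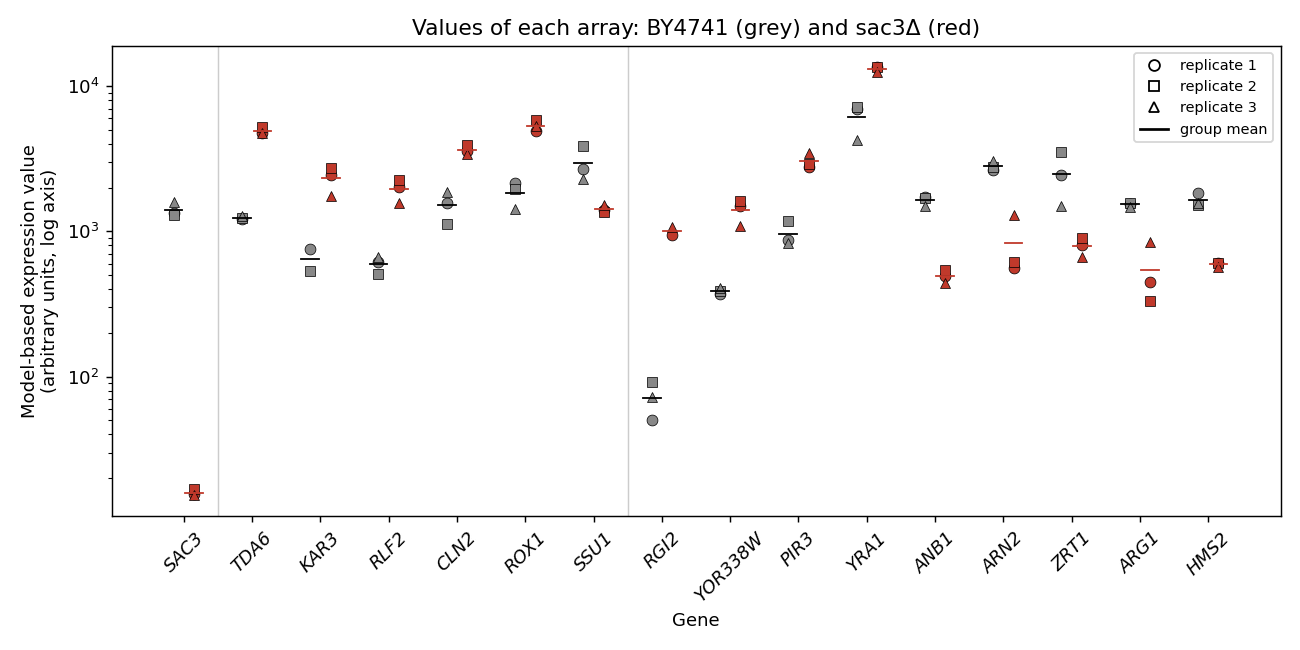
Expression value in arbitrary units (log axis) of 16 genes in each BY4741 (grey) and sac3Δ array (red), marker shape giving the replicate and bars the group means. SAC3 falls to below 20 units, the 6 genes between the vertical lines are on chromosome XVI, and for none of the 16 genes do the strains overlap.

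Genes of the cell cycle and of chromosome segregation counted more increases than the 4.82% of all genes off chromosome XVI, and no decrease in the lists of G1/S, replication, G2/M and spindle genes, although 1 or 2 replication genes were down under each other scaling and 1 without BY4741 replicate 2. The gene lists rested on sac3Δ replicates 1 and 2 as the single genes did. Without replicate 1 no list had more than 2 members up or 2 down off chromosome XVI, and without replicate 2 none had more than 3 up or 4 down. In bulk cultures, more cells in a cell cycle phase and more transcript per cell cannot be told apart. Of the 55 measured G1/S genes, which are driven by the SBF and MBF factors, 15 were up and none was down, 6 of 6 on chromosome XVI and 9 of 49 elsewhere (median 0.40 off chromosome XVI). The set included SWI4 (0.99), the DNA-binding subunit of SBF itself, and the cohesin genes SMC1 (1.05), SMC3 (1.05) and MCD1 (0.99). The list's median deviation was 0.41, 0.36 and 0.43 in the sac3Δ arrays and 0.11, −0.23 and 0.21 in those of BY4741, so the strains did not overlap although wild-type replicate 2 was low. Among genes of the replication fork and origins 7 of 39 were up (5 of 37 off chromosome XVI), with CDC6, the helicase-loading factor (1.07 ± 0.21), at the top. Of the CLB2 cluster of G2/M genes 3 of 15 were up (2 of 13 off chromosome XVI, 5 without BY4741 replicate 1), the Polo kinase gene CDC5 among them. CDC5 read 1735, 996 and 1203 units in BY4741 and 3087, 2949 and 2366 in sac3Δ (1.12 ± 0.22, adjusted p = 0.017). Histone and histone chaperone genes had 0 calls among 14 in limma, with 3 at an unadjusted p under 0.05 and 0 by the methods' t-test.

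In the kinetochore, spindle and checkpoint list 16 of 50 genes were up and none was down (12 of 43 off chromosome XVI, median 0.37). NDC80, for a subunit of the outer kinetochore complex that binds microtubules, read 542, 581 and 548 units in BY4741 and 1551, 1992 and 866 in sac3Δ. The wild-type values were tight and the mutant values spread more than 2-fold (1.32 ± 0.29, adjusted p = 0.0242). CIN8, a spindle kinesin gene, read 1030, 704 and 568 against 1719, 1994 and 1218 units (1.11 ± 0.26, adjusted p = 0.0303). Both calls were lost without BY4741 replicate 3, when 5 of the 43 genes off chromosome XVI were called, and with array medians set equal or without BY4741 replicate 2, 7 were. The centromere genes MTW1 (1.07) and MIF2 (0.96) and the checkpoint gene MAD1 (1.07) also rose. The core cohesin genes SMC1, SMC3 and MCD1 were counted with the G1/S list. In a separate list of cohesin loading and regulatory factors, condensin and the Smc5/6 complex, none of whose 13 genes is on chromosome XVI, 5 were up and all 13 had a log2 fold change above 0 (median 0.38). SMC6 read 876, 755 and 800 units in BY4741 and 1683, 1777 and 1337 in sac3Δ, without overlap (0.97 ± 0.13, adjusted p = 0.00715). It was followed by the cohesin acetyltransferase gene ECO1 (0.95), PDS5 (0.94), SMC5 (0.78) and the condensin gene SMC2 (0.75). Genes of the M/G1 phase, daughter separation and PIR wall proteins gave 6 up and 2 down of 23. TEC1, a transcription factor of filamentous growth, rose by 1.02 ± 0.19 and the cyclin-dependent kinase inhibitor gene SIC1 by 0.82 ± 0.10, while PRY3, a cell wall gene of daughter cells, fell by 1.01 ± 0.14.

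Genes that make, process and export mRNA also counted more increases than decreases, as did all genes off chromosome XVI (242 up and 190 down). The study's own enrichment on these samples named transcription, mRNA processing and chromosome segregation, so these lists are not independent evidence. Of the THO, TREX and mRNA export genes 5 of 22 were up and none was down (3 of 20 off chromosome XVI, median 0.14). YRA1, for the adaptor that hands mRNA to Mex67 and that limits its own level through its intron, read 7003, 7226 and 4275 units in BY4741 and 13478, 13451 and 12478 in sac3Δ. All mutant arrays exceeded the wild type (2.19-fold, 1.13 ± 0.21, adjusted p = 0.0148). The THO subunit gene MFT1 read 1035, 1039 and 1011 units in BY4741 and 1984, 2221 and 1434 in sac3Δ (0.85 ± 0.16, adjusted p = 0.0172). The poly(A)-binding protein gene NAB2 (0.61 ± 0.09), the cap-binding protein gene CBC2 (0.69 ± 0.08) and the export receptor gene MEX67 (0.60) were closer to the fold limit, the last pair on chromosome XVI. NAB2, CBC2 and MEX67 were no longer called with array medians set equal, when the list off chromosome XVI had 2 up and 1 down.

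Of the remaining THSC/TREX-2 genes CDC31 was called (0.61 ± 0.12, adjusted p = 0.0188), and that call was lost with array medians set equal and without BY4741 replicate 1 or 3. THP1 (0.24, adjusted p = 0.123), SEM1 (0.12, adjusted p = 0.356) and SUS1 (−0.25, adjusted p = 0.274) were not called. Of 62 splicing genes 13 were up (9 of 56 off chromosome XVI), led by SNT309 on chromosome XVI (1.33 ± 0.17), CWC2 (1.07 ± 0.23) and PRP3 (1.05 ± 0.17). In 3′-end processing and termination 5 of 25 were up, and RTT103, which acts in torpedo termination, read 778, 779 and 498 units in BY4741 and 1586, 1762 and 1238 in sac3Δ (1.17 ± 0.22, adjusted p = 0.0152). SWI/SNF and RSC genes gave 5 up of 30 and genes of RNA polymerase II, Mediator and TFIID 8 up of 64, of which 2 and 5 were on chromosome XVI. Off that chromosome these were 3 of 27 (11.1%) and 3 of 53 (5.66%), the latter near the 4.82% of all genes there. With array medians set equal, the calls off chromosome XVI came to 5 up and 1 down for splicing, 1 up for 3′-end processing, 0 for SWI/SNF and RSC, and 2 up and 1 down for RNA polymerase II. Without sac3Δ replicate 3 the last pair of lists had 6 up each.

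Ribosome biogenesis genes were up in 17 of 83 cases with none down, 8 of 9 on chromosome XVI and 9 of 74 elsewhere (median 0.28). RRP9, for a U3 snoRNP protein encoded on chromosome XVI, read 1891, 1481 and 1221 units in BY4741 and 3696, 4121 and 3066 in sac3Δ (1.26 ± 0.19, adjusted p = 0.00873). Off that chromosome RRP14 (1.11) and NOP16 (1.10) rose most. This group leaned on single arrays: its median deviation was 0.22, −0.05 and −0.17 in BY4741 and 0.35, 0.39 and 0.05 in sac3Δ, so that the strains overlapped, and the calls off chromosome XVI went to 0 without BY4741 replicate 3, to 1 without BY4741 replicate 2 and to 18 without sac3Δ replicate 3.

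**Figure D5:**
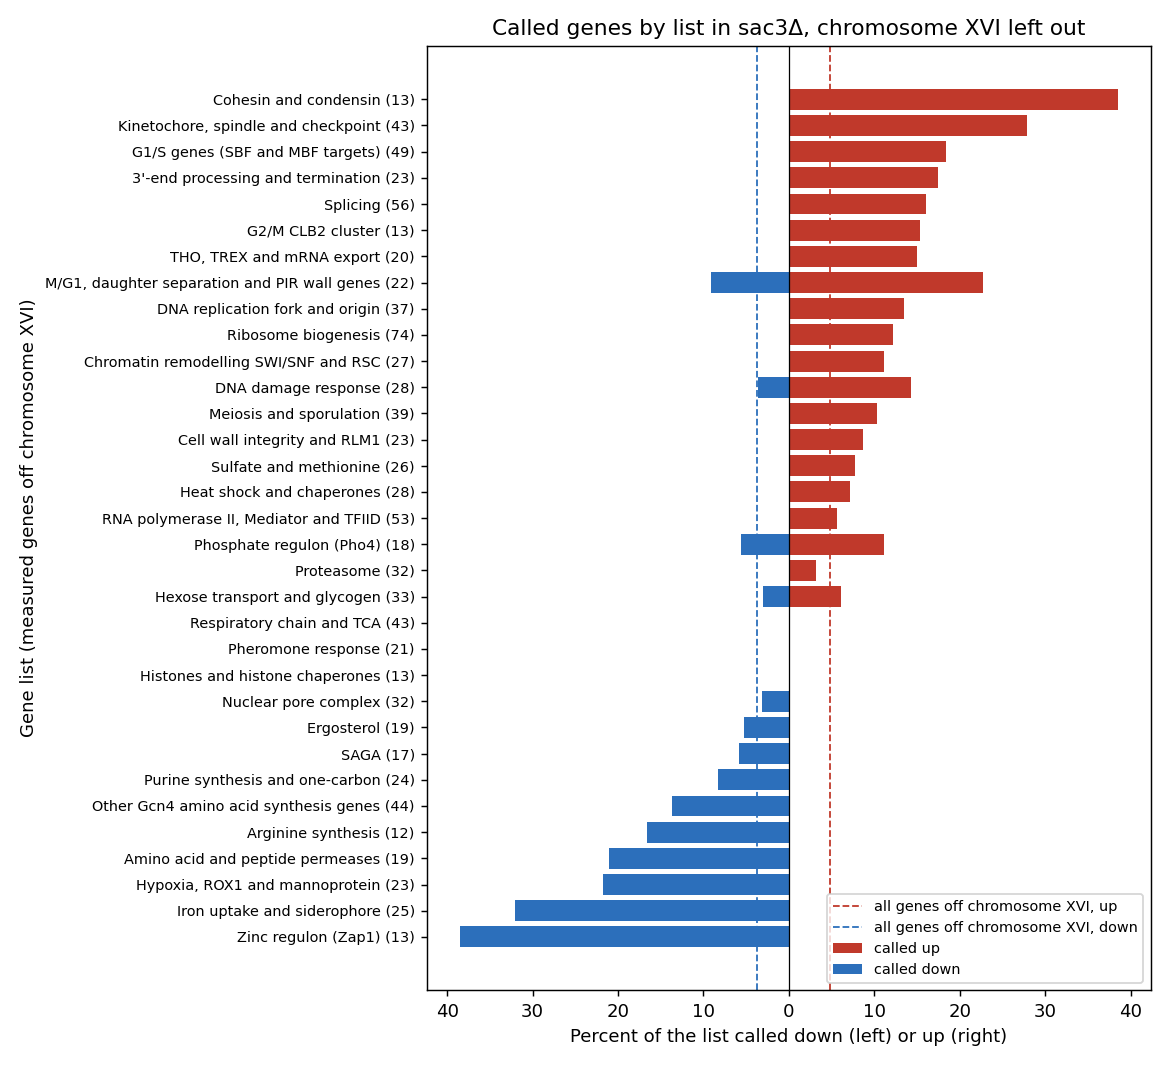
Percent of the members of each gene list drawn that were called up (red, right) or down (blue, left) in sac3Δ, with chromosome XVI genes left out and the number of measured genes in brackets. The lists of RT-qPCR genes, deleted or marker genes, mating-type-specific genes and THSC/TREX-2 subunits are not drawn. The dashed lines give the share among all genes off chromosome XVI, 4.82% up and 3.78% down. Of the lists drawn, those of cohesin factors and condensin (without SMC1, SMC3 and MCD1) and of zinc genes lie at the ends.

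Genes of metal uptake were down more often than the 3.78% of all genes off chromosome XVI. Of 27 genes in the iron list 8 were down and 1, ISU1 on chromosome XVI, was up. ISU1 is not itself an uptake gene, and with the chromosome's median subtracted (0.14) it was not called. ARN2, for a siderophore transporter, read 2654, 2754 and 3073 units in BY4741 and 564, 616 and 1300 in sac3Δ, and ARN1, its paralogue, read 3070, 2148 and 2868 against 989, 897 and 1748. The strains did not overlap in either (−1.88 ± 0.31, adjusted p = 0.0112 and −1.20 ± 0.27, adjusted p = 0.0273). The ferric reductase gene FRE4 fell by 1.70 ± 0.31 and the low-affinity iron transporter gene FET4 by 0.98 ± 0.16. The mannoprotein gene FIT2 shows how far the mutant arrays differed, with 6029 and 5827 units in BY4741 and 1574, 1235 and 10065 in sac3Δ (−1.14 ± 0.90, adjusted p = 0.401). The siderophore transporter gene SIT1 had the same pattern (4594, 3635 and 4665 against 1976, 2064 and 4436 units, adjusted p = 0.154). Over the 25 iron genes off chromosome XVI the median deviation was −0.78 and −0.77 in sac3Δ replicates 1 and 2 but −0.19 in replicate 3, against −0.04 to 0.11 in BY4741, and 14 were down without replicate 3. Without BY4741 replicate 1 or 3 the count was 5.

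In the Zap1 regulon, which keeps up zinc supply, 5 of 13 genes were down. The high-affinity zinc transporter gene ZRT1 read 2428, 3527 and 1504 units in BY4741 and 802, 899 and 666 in sac3Δ (−1.58 ± 0.30, adjusted p = 0.0164). IZH4, for a membrane protein of zinc homeostasis, read 1344, 3435 and 879 units against 484, 504 and 431 (−1.76 ± 0.46, adjusted p = 0.0389), a call lost without BY4741 replicate 1 and without sac3Δ replicate 3. Without either array 3 zinc genes were down. The list's median deviation was −0.31, −0.23 and −0.61 in sac3Δ and 0.00, 0.14 and −0.29 in BY4741, so that the strains overlapped. IZH2 fell by 1.29 ± 0.22, ZPS1 by 0.91 ± 0.12 and ZRT2 by 0.68. The wild-type arrays differed here more than the mutant ones, replicate 2 being the highest in each of ZRT1, IZH4 and IZH2. In the phosphate regulon, the median over 18 genes off chromosome XVI was −0.32 and the calls went both ways, with PHM8 and the regulator gene PHO2 (0.80) up and the acid phosphatase gene PHO5 down (625, 660 and 623 against 375, 344 and 473 units, −0.69 ± 0.13, adjusted p = 0.0163). With array medians set equal 4 were down. The phosphate transporter gene PHO84 was lower in all mutant arrays, at 544, 904 and 155 units against 2122, 1507 and 1340, but failed the test (−1.94 ± 0.61, adjusted p = 0.0641).

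Of 24 genes in the hypoxia list 5 were down, and ROX1, for the repressor of such genes, was the single increase. Of the 23 off chromosome XVI, 5 were down (21.7%, against 3.78% of all genes there) and 9 had a log2 fold change above 0 (median −0.22). ANB1, for the hypoxic form of translation factor eIF5A, read 1730, 1710 and 1486 units in BY4741 and 497, 540 and 442 in sac3Δ. Wild type and mutant were separated by a wide gap (3.33-fold lower, −1.74 ± 0.11, adjusted p = 0.00227). The cell wall mannoprotein gene TIR1 read 3997, 3774 and 3108 units in BY4741 and 1686, 1860 and 1970 in sac3Δ (−0.97 ± 0.12, adjusted p = 0.00657). DAN1, of the same family and dimmer, went from 225, 208 and 191 units to 101, 102 and 116 (−0.97 ± 0.10, adjusted p = 0.00564), and HMG2, a hypoxic form of HMG-CoA reductase, fell by 0.77 ± 0.10. DAN1 was no longer called after quantile normalisation or without BY4741 replicate 1, and 8 genes of the list were down with array medians set equal. Cell wall integrity genes had 4 up of 27, among them RLM1 and the MAP kinase gene SLT2. SLT2 read 2559, 3277 and 2825 units in BY4741 and 4884, 5335 and 5055 in sac3Δ (0.83 ± 0.11, adjusted p = 0.00735), yet the median of the list off chromosome XVI was 0.00.

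Some amino acid synthesis and uptake genes were down and most were not called. Off chromosome XVI, the share down was 16.7% of 12 arginine genes, 13.6% of 44 other Gcn4 genes and 21.1% of 19 permease genes. Of all genes off that chromosome 3.78% were down. In arginine synthesis 2 of 13 genes were down. ARG1, the argininosuccinate synthetase gene, read 1541, 1576 and 1481 units in BY4741 and 448, 334 and 840 in sac3Δ (−1.61 ± 0.31, adjusted p = 0.0174), and ARG3 fell by 0.90 ± 0.19. Of 46 other genes under the activator Gcn4 6 were down and none was up. BAT2, the cytosolic branched-chain aminotransferase gene, read 4474, 4890 and 5131 units in BY4741 and 1881, 1431 and 1991 in sac3Δ (−1.46 ± 0.14, adjusted p = 0.00564). HMS2, a transcription factor gene and the neighbour of BAT2 on chromosome X, read 1839, 1524 and 1576 against 610, 604 and 570 units (−1.46 ± 0.10, adjusted p = 0.00227). Each mutant array was more than 2-fold below each wild-type array for both genes. HIS4 (−0.88 ± 0.14), SER3 (−1.02 ± 0.27) and ARO1 (−0.67 ± 0.12) were also down. Of 23 genes in the permease list 5 were down, 1 of them SSU1 on chromosome XVI. Among the others were the peptide transporter gene PTR2 (3526, 3584 and 4153 against 1764, 1988 and 1068 units, −1.27 ± 0.23, adjusted p = 0.015) and the oligopeptide transporter gene OPT1 (−1.18 ± 0.12). The ammonium permease gene MEP3 on chromosome XVI was up.

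The largest decreases after SAC3 were those of subtelomeric and membrane genes. YAR066W read 177, 139 and 133 units in BY4741 and 12.2, 9.0 and 27.4 in sac3Δ, at or near background, so that it was at least 5.64-fold lower (adjusted p = 0.00599). Its probe set can also read near-identical copies. YAR068W, close to it on chromosome I, read 760 and 577 units against 117, 109 and 178 (−2.33 ± 0.25, adjusted p = 0.00643). The eisosome gene FMP45 read 202, 549 and 291 units in BY4741 and 63.0, 54.0 and 87.8 in sac3Δ (−2.25 ± 0.37, adjusted p = 0.0113). YHK8, a putative drug antiporter gene, read 287, 253 and 339 units in BY4741 and 77.7, 71.9 and 60.6 in sac3Δ (−2.06 ± 0.14, adjusted p = 0.00227). NRT1, for the nicotinamide riboside transporter, read 709, 748 and 841 against 214, 218 and 239 units (−1.78 ± 0.10, adjusted p = 0.00124). The strains were apart in all of these, and the arrays of each strain lay close together for YHK8 and NRT1. A Ty1 element (YBL005W-A), whose probe set reads other copies, fell by 2.01 ± 0.18, and RSB1, a sphingoid base transporter gene, and TSA2, a thioredoxin peroxidase gene, each fell by 1.81 (± 0.24 and ± 0.38). The phospholipase gene PLB2 read 3748 and 3625 units in BY4741 and 1623, 1536 and 1319 in sac3Δ (−1.31 ± 0.12, adjusted p = 0.00564).

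Several groups had few or no calls, or calls in both directions. Respiratory chain and tricarboxylic acid cycle genes had 2 up of 48, both on chromosome XVI, and pheromone response genes had 0 of 23 in limma, with 5 at an unadjusted p under 0.05, 1 called in the fit of all 15 arrays and 0 by the methods' t-test. Among 32 nuclear pore genes POM152, for a pore membrane ring protein, was down (2912, 2759 and 2842 against 1929, 1911 and 1718 units, −0.62 ± 0.09, adjusted p = 0.00757) and none was up. In SAGA, which shares Sus1 with THSC/TREX-2, HFI1 on chromosome XVI was up (0.68 ± 0.11) and TRA1 down (−0.70 ± 0.13) among 19. Proteasome genes had 2 up of 34, of which 1 was on chromosome XVI and the other was RPN4, the activator of these genes. RPN4 read 2108, 2716 and 1955 units in BY4741 and 4359, 4722 and 3290 in sac3Δ (0.87 ± 0.18, adjusted p = 0.0217, call lost without BY4741 replicate 1 or 3). All 32 list genes off chromosome XVI had a log2 fold change above 0 (median 0.20, or 0.09 with array medians set equal). Heat-shock genes had 3 up of 30, ergosterol genes 1 down of 21, and purine and one-carbon genes 2 down of 25. With array medians set equal these counts off chromosome XVI became 0, 3 and 5. DNA damage genes had 4 up and 1 down of 29, all 5 off chromosome XVI. The share up was 14.3% of the 28 there, above the 4.82% of all genes off that chromosome, and the share down was 3.57%. HUG1, a small inhibitor of ribonucleotide reductase, was the decrease (682, 502 and 947 against 307, 295 and 376 units, −1.08 ± 0.23, adjusted p = 0.0237), and 0 genes were up and 4 down with array medians set equal. In a list of hexose transport and glycogen genes 2 were up and 1 was down of 35, the decrease being HXT5 (−1.16 ± 0.15). Without BY4741 replicate 1, 8 were down and the median off chromosome XVI went from −0.02 to −0.32. In sulfate and methionine genes 3 were up of 28 (with 3 down off chromosome XVI without sac3Δ replicate 3). Meiosis genes had 4 up of 42, all off chromosome XVI, which was 10.3% of the 39 there.

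The response was set against that of thp1Δ, the mutant in the subunit that binds Sac3, which had been compared with its own wild type BY4742. BY4742 and thp1Δ have the expression of the other mating type, which enters the difference. The contrast of both responses in 1 model of 12 arrays found 152 of 5443 genes higher in sac3Δ relative to thp1Δ (2.79%) and 189 lower (3.47%). Chromosome XVI took 66 of the decreases and 2 of the increases, with a median difference of −0.36, whereas off that chromosome 150 genes were higher and 123 lower with a median of −0.02. The chromosome shift in the 3 thp1Δ arrays was 0.87, 0.89 and 0.86, above the 0.49 to 0.52 of sac3Δ (exact permutation test, p = 0.10, the smallest possible). Of the genes called in sac3Δ, 29 of 159 on chromosome XVI and 40 of 431 elsewhere differed from the thp1Δ response. Over all genes, called or not, 66 were lower and 2 higher among the 424 of chromosome XVI. Among the 5025 elsewhere 123 were lower and 150 higher. The called genes were chosen on sac3Δ and BY4741 values that also enter the contrast, so their counts are not a test. For the other called genes a difference of 1.5-fold or more was not called, which does not show that the mutants were alike.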

How the data were processed

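The deposited intensity values, in arbitrary units on a linear scale, were made by the authors with dChip (version not given in the sources used here). Per the study's methods, arrays were scaled to an invariant probe set, perfect-match probes gave 1 model-based value per probe set, and outliers were left empty. The log2 of each value was taken without further scaling or filter on low values, and empty cells were missing. Of 5900 probe sets, 137 were controls, 5498 had 1 gene and 265 had none assigned. For 47 genes with several probe sets the one with the highest mean was used. Gene names and order came from RefSeq (R64). Only the 6 arrays entered the main model, which was fitted by lmFit and eBayes of limma 3.58.1 (R 4.3.3). P-values were adjusted after Benjamini-Hochberg over 5449 genes. The methods' thresholds of fold and difference were kept, but their p-value was not adjusted and their cutoff of 600 units was an alternative here. Log2 fold changes are ± SE with n = 3 arrays per strain unless a value is empty. The number of arrays limits the precision. On simulated data for this comparison (5449 genes), 82.0% of 100 genes changed by 1 on the log2 scale and 98.0% of 100 changed by 2 were recovered, with 5 false calls. The changed genes were drawn from those with a mean above 600 units, so recovery among dimmer genes was not tested. The simulated noise was independent between arrays, without scale differences or a chromosome shift. The named genes are SAC3 and its neighbours, marker genes, the 10 largest called increases on and off chromosome XVI, the 10 largest decreases off it and any on it, the RT-qPCR genes and up to 4 called members per direction of 38 gene lists; other genes named with them were chosen after their values were seen. A gene among the largest increases is not reported here. The members and lists were chosen with earlier results of these data known. Alternatives were other scalings, filters, fits and the omission of each array.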

Additional observations from a re-analysis of the deposited data

Results flagged for a closer look

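For 16 named genes the response in sac3Δ differed from that in thp1Δ by the limma contrast of both responses (adjusted p under 0.05 and at least 1.5-fold), thp1Δ having been set against BY4742, which has the expression of the other mating type. The values below are the sac3Δ log2 fold change minus that of thp1Δ. RGI2 had the largest difference (4.57, adjusted p = 1.04e-05 in limma), with a log2 fold change of 3.86 in sac3Δ and −0.71 in thp1Δ. PHO5 (1.84), HIS4 (0.89), AAH1 (0.85), PLB2 (0.65), YHK8 (0.64) and OPT1 (0.60) were lower than wild type in both mutants, less so in sac3Δ. TDA6 (0.61) was up more in sac3Δ. The difference was negative for ROX1 (−0.68), SWI1 (−0.76) and ISU1 (−0.68), which are on chromosome XVI and were up in sac3Δ, and for TEC1 (−0.82) and UBI4 (−0.66), up in sac3Δ on other chromosomes. It was also negative for RSB1 (−1.27), HUG1 (−1.15) and the mating-type gene STE3 (−1.42), all down in sac3Δ.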

How the results depend on the processing

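The shift of chromosome XVI over the other chromosomes (0.49) was between 0.48 and 0.51 under the other scalings, fits and filters, the highest with array weights, and between 0.49 and 0.52 when single arrays were left out. The counts of calls moved more. With array medians set equal, 154 genes were up and 331 down off chromosome XVI, against 242 and 190. The cutoff at 600 units left 113 down there. A Welch t-test of the linear values was run at the methods' thresholds of fold, difference and unadjusted p. It left out their cutoff of 600 units and is not the dChip comparison of the study, so its counts are not the study's. This t-test called 147 genes up on chromosome XVI, 193 up and 138 down elsewhere. After Benjamini-Hochberg adjustment these were 10, 6 and 6, and SAC3 itself (−6.47) was not called. Leaving out single arrays gave 41 to 162 genes up on chromosome XVI, 22 to 319 up and 34 to 220 down elsewhere, the lowest without sac3Δ replicate 1. For chromosome XVI genes called down, those fits gave 0 to 2, both forms of the t-test 0, no minimum difference 3, and the 15-array fit, the 600 cutoff, all 3 scalings, log2(value + 50), array weights and the replicate block 2 each. After subtraction of the chromosome's median, chosen after seeing the data, 26 genes were above and 13 below. The cause of these changes was not tested, except that a left-out array or the cutoff leaves fewer values or genes.

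The labels number the replicates of both strains 1 to 3 and do not say whether the numbers mark pairs. Deviations of same-numbered arrays had an r of 0.28, 0.07 and 0.27 across genes, against −0.35 to 0.26 for arrays of different number. For each BY4741 array the same-numbered sac3Δ array had the highest r, so pairing could not be settled. The main model was fitted without pairs. With the replicate number as a block, 162 genes were up on chromosome XVI, and 284 were up and 229 down elsewhere. Of the 131 named genes that were called, 129 kept their call under the block, 107 under all 3 scalings, 98 without each BY4741 array and without sac3Δ replicate 3 in turn, and 30 without each of the 6 arrays in turn. Without sac3Δ replicate 1 no gene list had more than 2 members up or 2 down off chromosome XVI. No direction of a called gene was reversed.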
